A study of Canis lupus with 23 samples.

Results

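DNA repair genes were chosen here as a list of 50 symbols that covers the main repair pathways, and each symbol was looked up among the probesets of a canine expression array by the platform's own gene symbol. Of the 50 genes, 47 had at least 1 probeset, out of 15115 genes measured in all. PALB2, LIG1 and BLM had no probeset under their symbol and are not analysed here. A filter on dim genes kept 9972 genes, among them 44 of the DNA repair genes, and OGG1, UNG and MGMT fell below it. By pathway the list held 17 genes of homologous recombination and crosslink repair (15 measured), 6 of end joining, 4 of mismatch repair, 8 of nucleotide excision repair, 10 of base excision and single-strand break repair (9 measured), 4 of damage signaling and 1 of direct reversal.

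Cells repair DNA by several routes that each recognise a different lesion. Homologous recombination and end joining rejoin broken double strands, mismatch repair corrects copying errors, nucleotide excision cuts out bulky adducts, base excision replaces single damaged bases, and MGMT takes alkyl groups directly off guanine. Signaling kinases such as ATM, ATR, CHEK1 and CHEK2 halt the cell cycle while repair goes on, and several members, BRCA1, BRCA2, FANCD2 and CHEK1 among them, are made mainly by dividing cells.

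The RNA came from 23 tumors of client-owned pet dogs with untreated disease, 1 biopsy and 1 array per dog. The biopsies had been reviewed centrally for a high share of tumor nuclei, and the RNA had been amplified before labelling. The groups were 7 lymphomas, 5 melanomas, 4 sarcomas (2 titled as soft tissue sarcoma, STS, and 2 titled as sarcoma only), 3 transitional cell carcinomas of the bladder (TCC), and 1 each of hepatocellular carcinoma (HCC), nasal tumor, hemangiosarcoma (HSA) and histiocytic sarcoma. No normal tissue was among the samples, so each level is relative to other tumors, and nothing in the labels separates breed, site or grade within a type. The study enrolled golden retrievers for its lymphoma cohort and Scottish terriers for its TCC cohort. Breed and type are therefore partly tied and cannot be fully told apart for lymphoma and TCC. In a bulk biopsy, fewer cells of a type and less RNA per cell cannot be told apart.

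Values are given as log2 of the deposited signal plus 16, averaged over the probesets of a gene. The constant holds down noise near the floor, which lies at 4 on this scale, and makes differences of dim genes look smaller than they are. Levels are compared between tumors and not between genes. The median signal per array lay between 82.1 and 132, and the log2 ratio of 3' to 5' control probesets, a sign of RNA length after amplification, ranged over 2.53 to 3.45 for lymphoma, 2.95 to 4.70 for melanoma, 3.05 to 4.08 for sarcoma and 3.19 to 3.79 for TCC, and stood at 3.85 for the HCC. Marker lists matched the labels for the melanomas (melanocyte genes averaged 10.56 to 11.08, against at most 6.43 in the other tumors), the TCCs (urothelial genes 10.36 to 11.33, against at most 5.77) and the HCC (hepatocyte genes 14.11, against at most 6.88). B cell genes in 6 of the 7 lymphomas lay above every other tumor, and T cell genes in 4. Lymphomas 3, 4 and 6 had T cell means of 11.92, 13.14 and 12.71, against B cell means of 7.87, 8.09 and 6.80. Lymphomas 0 and 2 had the highest B cell means (10.97 and 10.85), with T cell means of 9.67 and 9.89. The lymphomas thus differed in lymphocyte markers, and the labels give no B or T cell class. Fibroblast and matrix genes did not set the sarcomas apart, with 11.69 to 13.37 in the sarcomas and up to 13.08 elsewhere.

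The first question was whether any DNA repair gene differed among the 4 types with more than 1 tumor. By an F test in limma with Benjamini-Hochberg adjustment over all 9972 genes, 8 of 44 members passed (18.2%), a smaller share than the 35.6% of all tested genes. They were CHEK2 (adjusted p = 8.51e-05), a checkpoint kinase activated by ATM, PARP1 (0.000309), which senses strand breaks and makes poly-ADP-ribose, FANCA (0.00473), a subunit of the Fanconi anemia core complex, XRCC1 (0.0136), a scaffold of single-strand break repair, RAD52 (0.0163), which anneals single strands, ERCC3 (0.0185), a helicase of the transcription factor TFIIH, ATR (0.0293), the kinase that responds to stalled replication forks, and PRKDC (0.0495), the catalytic subunit of DNA-PK. Across 29 alternative analyses CHEK2 and PARP1 passed in all, while PRKDC missed the threshold in 21 and ATR in 6. No mismatch repair gene passed. The spread over the 23 tumors was also modest, with a median SD of 0.63 over the kept members, against 0.71 over all kept genes. Among the measured members it ran between 0.41 for RAD23B and 1.03 for FANCD2.

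**Figure D1:**
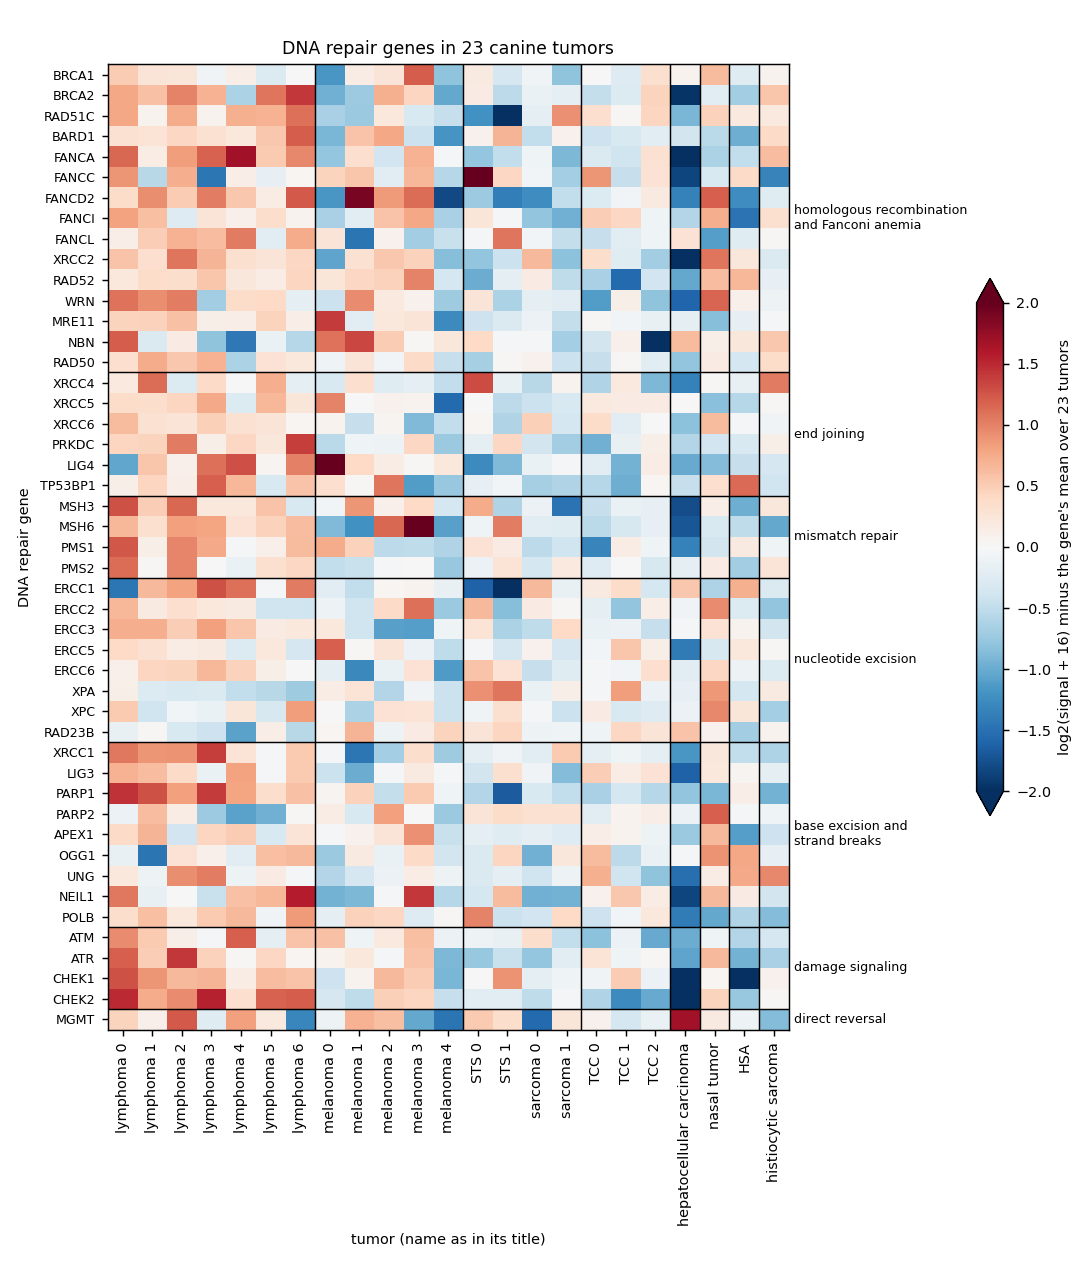
Heatmap of the 47 measured DNA repair genes in rows, grouped by pathway, and the 23 tumors in columns, grouped by type; color is log2(signal + 16) minus the mean of that gene over all tumors. The lymphoma columns are mostly above the gene mean outside nucleotide excision repair, and the HCC column holds the lowest value of 18 of the 47 genes.

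**Figure D2:**
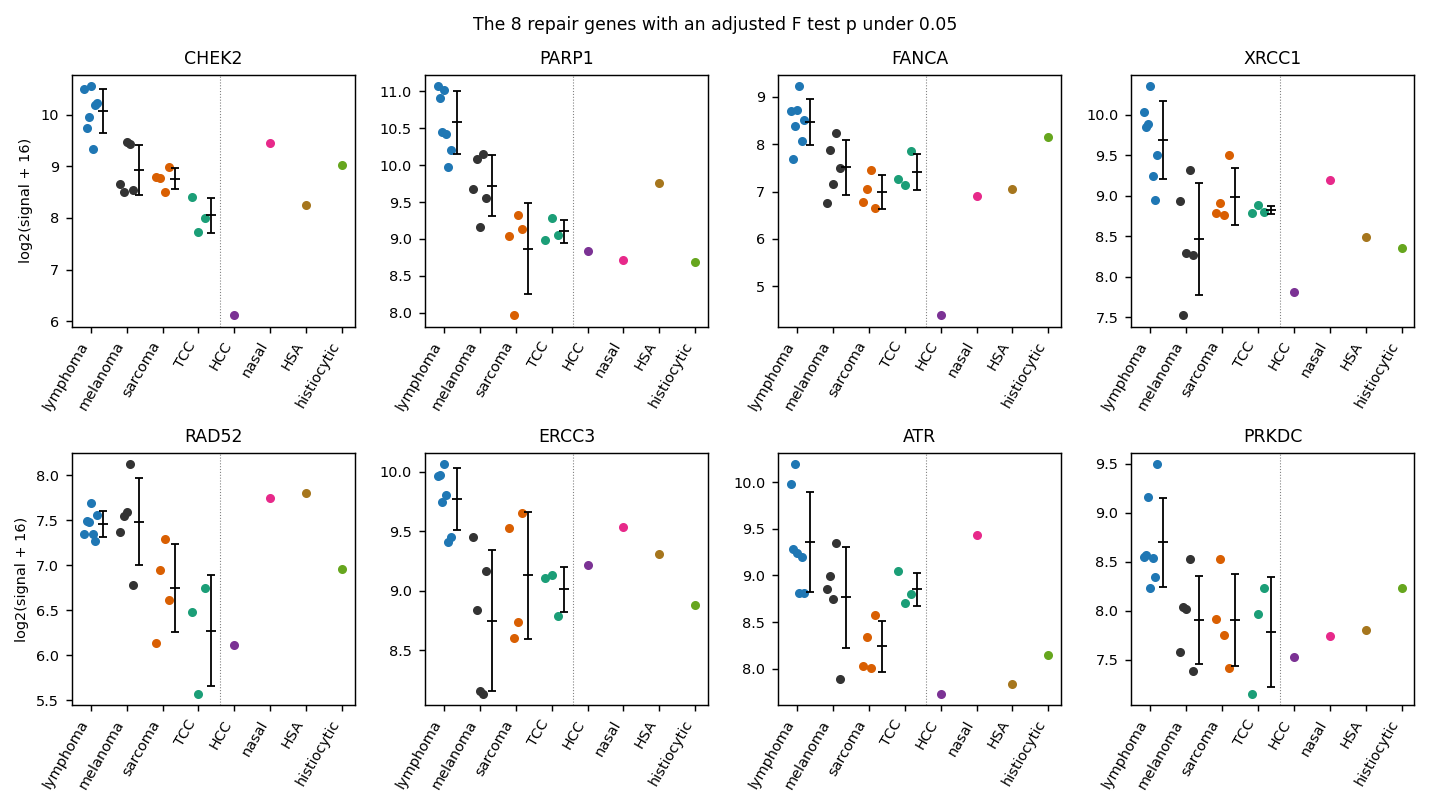
Levels, as log2(signal + 16), of the 8 DNA repair genes that passed the F test, by tumor type; each point is 1 tumor, and bars give the mean ± SD for types with more than 1 tumor. CHEK2 averaged 10.07 in lymphoma and 8.05 in TCC, and the HCC lay at 6.12.

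Each type was then compared with the mean of the other 3. In lymphoma the values of the listed repair genes lay mostly upward. The members were chosen with earlier results of these data known, so the counts describe the list and do not test it. Of the 44 kept members, 39 had a difference above 0 (88.6%, against 54.5% of all tested genes), and the median difference was 0.60, against 0.07 over all kept genes. With an adjusted p under 0.05 and a log2 difference of at least 1, 3 members were higher (6.82%, against 6.95% of all genes) and 0 were lower (against 12.1%), where 26 members had an unadjusted p under 0.05 (59.1%, against 43.6%). By adjusted p alone 14 members were higher (31.8%, against 17.1%) and 2 were lower (4.55%, against 15.9%). Most of the shifts were thus smaller than 2-fold. Over 30 alternative analyses, CHEK2, PARP1 and ERCC3 kept an adjusted p under 0.05 in all, and FANCA, XRCC1, ATR, PRKDC, BRCA2, RAD23B and PMS1 lost it in 1 to 8. The other 6 lost it in most: TP53BP1 in 21, RAD51C and XPA in 19 each, RAD52 in 18, and FANCL and PMS2 in 17 each, of which 11 to 13 left out a single tumor. No member had all 7 lymphomas above, or all 7 below, the 12 tumors of the other 3 types (against 1.59% and 1.49% of all genes).

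**Figure D3:**
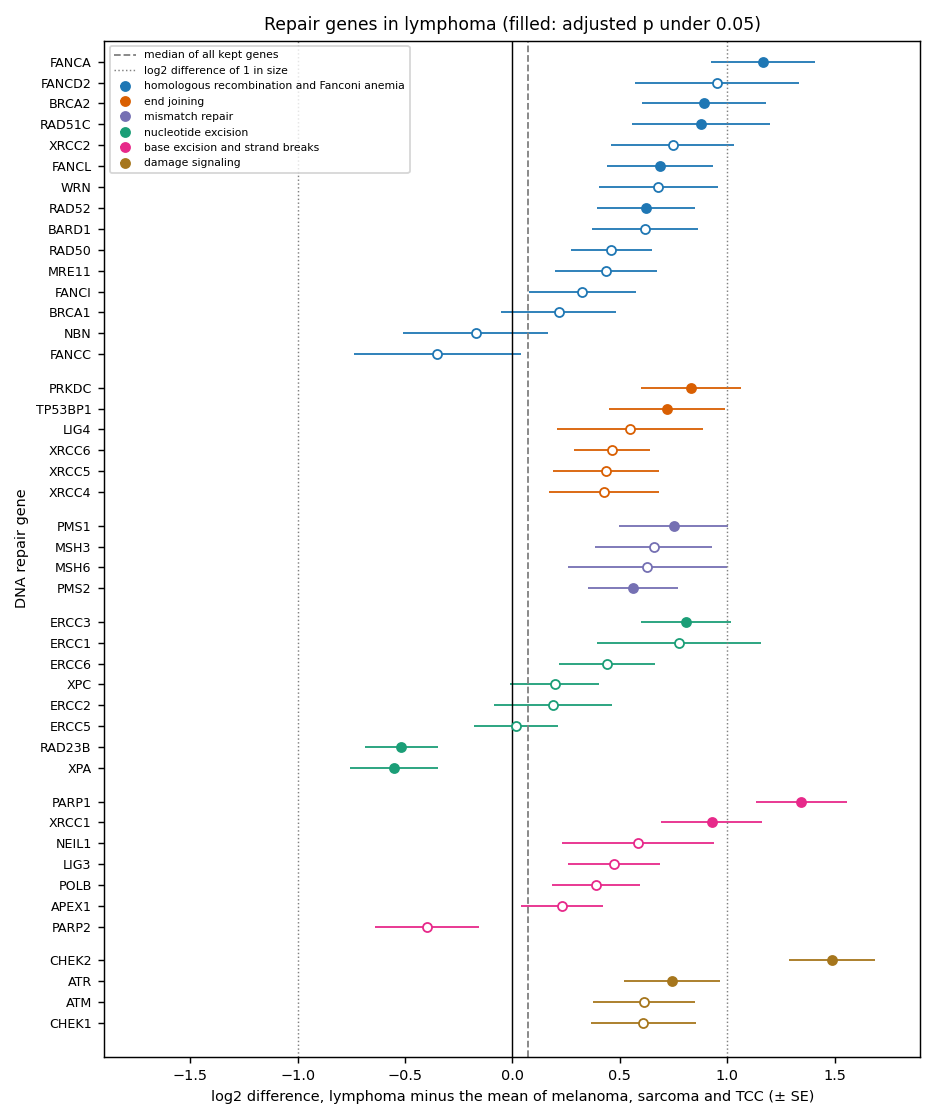
Log2 difference ± SE between lymphoma (7 tumors) and the mean of melanoma, sarcoma and TCC (12 tumors) for the 44 kept DNA repair genes by pathway; filled points have an adjusted p under 0.05, the dashed line is the median of all kept genes (0.07) and the dotted line marks a difference of 1. CHEK2, PARP1 and FANCA lie past the dotted line with adjusted p under 0.05, and XPA and RAD23B are the filled points below 0.

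Among the signaling genes, CHEK2 gave the smallest p. Its level in the lymphomas was 9.33 at the lowest, 10.19 at the median and 10.55 at the highest. The melanomas had 8.66, 8.51, 9.48, 9.43 and 8.55, the sarcomas 8.79 and 8.78 (STS) and 8.50 and 8.98 (sarcoma), and the TCCs 8.41, 7.73 and 8.00. Lymphoma was higher by 1.49 (SE 0.20, adjusted p = 1.93e-05), and 6 of the 7 lymphomas exceeded every melanoma, sarcoma and TCC. The exception was lymphoma 4, which lay below melanoma 2 and melanoma 3. Its probesets moved together, with a lowest correlation of 0.87 between them over the 23 arrays.

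ATR was 0.74 higher in lymphoma (SE 0.22, adjusted p = 0.0154). Its lymphoma levels had a lowest value of 8.81, a median of 9.24 and a highest value of 10.19, and the type means were 8.77 ± 0.54 in melanoma, 8.24 ± 0.27 in sarcoma and 8.85 ± 0.18 in TCC (SD over 5, 4 and 3 tumors here and below, and over 7 for lymphoma). Only 2 lymphomas exceeded all 12 other tumors, so the types overlapped. ATM, the kinase that responds to double-strand breaks, had a difference of 0.61 (adjusted p = 0.0529), with 7.43 ± 0.51 in lymphoma, against 7.22 ± 0.35 in melanoma, 6.88 ± 0.35 in sarcoma and 6.33 ± 0.47 in TCC. Its 2 probesets did not move together and 1 of them was dim; with the brighter probeset alone ATM was called higher in lymphoma, by 1.11 (adjusted p = 0.00341). CHEK1, the kinase downstream of ATR, also had 0.61 (adjusted p = 0.0617).

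In base excision and single-strand break repair, PARP1 and XRCC1 were higher in lymphoma and the other 5 kept members did not pass. PARP1 was 9.98 at the lowest, 10.45 at the median and 11.07 at the highest in the lymphomas. It was 9.68, 10.09, 9.16, 10.15 and 9.55 in the melanomas, 9.05 and 7.97 (STS) and 9.33 and 9.14 (sarcoma) in the sarcomas, and 8.98, 9.28 and 9.05 in the TCCs. The difference was 1.35 (SE 0.21, adjusted p = 0.000103). Of the 7 lymphomas, 6 lay above all 12 others, and lymphoma 5 fell below melanoma 1 and melanoma 3. XRCC1, which PARP1 recruits to breaks, was higher by 0.93 (SE 0.23, adjusted p = 0.00539), with 9.69 ± 0.48 in lymphoma, against 8.47 ± 0.69 in melanoma, 8.99 ± 0.35 in sarcoma and 8.83 ± 0.05 in TCC. LIG3, the ligase that partners XRCC1, had 0.47 (adjusted p = 0.0957), with means of 8.08 ± 0.36 in lymphoma, against 7.41 ± 0.47 in melanoma, 7.43 ± 0.50 in sarcoma and 7.98 ± 0.17 in TCC. PARP2, the close relative of PARP1, had -0.40 (adjusted p = 0.216).

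Of the 15 members in homologous recombination and crosslink repair, 5 were higher in lymphoma by adjusted p alone and 0 were lower, with a median difference of 0.62. FANCA was the one past 1. Its lymphoma levels were 7.69 at the lowest, 8.51 at the median and 9.23 at the highest, against 6.76, 7.88, 7.16, 8.23 and 7.50 in the melanomas, 6.78, 7.05, 7.46 and 6.65 in the sarcomas and 7.25, 7.14 and 7.85 in the TCCs. The difference was 1.17 (SE 0.24, adjusted p = 0.00114), and 5 of the 7 lymphomas lay above all 12 others, the highest of which was melanoma 3. With a constant of 64 in place of 16 the difference was 0.96, under the size of 1.

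BRCA2, which loads the recombinase onto single strands, was 0.89 higher in lymphoma (SE 0.29, adjusted p = 0.0236). Its lymphoma levels had a lowest value of 7.45, a median of 8.86 and a highest value of 9.49, and the means were 7.77 ± 0.82 in melanoma, 7.91 ± 0.28 in sarcoma and 7.98 ± 0.48 in TCC. The lowest was lymphoma 4, and the other 6 lymphomas lay between 8.66 and 9.49. BRCA1, its partner in the same pathway, had 7.88 ± 0.26 in lymphoma, against 7.70 ± 0.94 in melanoma, 7.51 ± 0.42 in sarcoma and 7.79 ± 0.29 in TCC. Its difference of 0.22 (SE 0.27) did not pass (adjusted p = 0.562).

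RAD51C, a paralog of the recombinase, was higher by 0.88 (SE 0.32, adjusted p = 0.0412), and its sarcoma levels were uneven, at 8.20 and 6.93 in the STS and 9.23 and 10.33 in the tumors titled sarcoma. FANCL, the ubiquitin ligase of the core complex, was higher by 0.69 (adjusted p = 0.0390) and RAD52 by 0.62 (adjusted p = 0.0415). RAD52 differed by type without setting lymphoma apart: its means were 7.46 ± 0.14 in lymphoma, against 7.48 ± 0.48 in melanoma, 6.75 ± 0.49 in sarcoma and 6.27 ± 0.62 in TCC. None of the lymphomas (0 of 7) lay above all 12 others. FANCD2, the target of that ligase, had a difference of 0.95 with a wide error (SE 0.38, adjusted p = 0.0623). Its melanoma levels ran between 7.32 in melanoma 4 and 11.03 in melanoma 1.

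The end joining genes all had differences above 0 in lymphoma (6 of 6, median 0.51), and 2 passed. PRKDC was higher by 0.83 (SE 0.23, adjusted p = 0.0103), with 8.24 at the lowest, 8.55 at the median and 9.50 at the highest in lymphoma, against 7.91 ± 0.45 in melanoma, 7.91 ± 0.47 in sarcoma and 7.79 ± 0.56 in TCC. TP53BP1, which shields broken ends from resection, was higher by 0.72 (SE 0.27, adjusted p = 0.0467). XRCC6, the Ku70 subunit that binds broken ends, had 0.46 (adjusted p = 0.0512), and its lymphoma levels were close together at 9.69 ± 0.19. LIG4, the ligase of this pathway, had 0.55 (adjusted p = 0.224), with 8.92 ± 0.81 in lymphoma, against 9.07 ± 0.88 in melanoma, 7.91 ± 0.60 in sarcoma and 8.15 ± 0.55 in TCC.

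In mismatch repair the differences of all 4 members were above 0, with a median of 0.64. PMS1 was higher by 0.75 (SE 0.26, adjusted p = 0.0293) and PMS2, a subunit of the endonuclease that nicks the new strand, by 0.56 (SE 0.21, adjusted p = 0.0452). PMS1 was 10.44 at the lowest, 11.10 at the median and 11.70 at the highest in lymphoma, against 10.37 ± 0.63 in melanoma, 10.35 ± 0.41 in sarcoma and 10.04 ± 0.79 in TCC. The lowest correlation between the probesets of PMS2 was -0.05, so its mean joins probesets that did not move together. MSH3 and MSH6, which recognise mismatches and small loops, had 0.66 and 0.63 (adjusted p = 0.0712 and 0.201).

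Nucleotide excision repair was the pathway with the smallest median in lymphoma, 0.19 over 8 members, and the only one with members lower by adjusted p alone. ERCC3 was higher by 0.81 (SE 0.21, adjusted p = 0.00625), with 9.41 at the lowest, 9.80 at the median and 10.06 at the highest in lymphoma, against 8.75 ± 0.59 in melanoma, 9.13 ± 0.53 in sarcoma and 9.01 ± 0.19 in TCC. Of the 7 lymphomas, 5 exceeded every melanoma, sarcoma and TCC. XPA, which verifies the damage, was lower by 0.55 (SE 0.20, adjusted p = 0.0438), and RAD23B, a partner of XPC in damage recognition, was lower by 0.52 (SE 0.17, adjusted p = 0.0250).

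XPA was 8.68 at the lowest, 9.08 at the median and 9.50 at the highest in lymphoma. The STS had 10.29 and 10.45 and the tumors titled sarcoma 9.24 and 9.50, with 9.25 ± 0.37 in melanoma and 9.61 ± 0.53 in TCC. RAD23B, a gene with a drug biomarker rule in the study, was 9.72 at the lowest, 10.49 at the median and 10.92 at the highest in lymphoma, against 11.03 ± 0.31 in melanoma, 10.91 ± 0.26 in sarcoma and 10.99 ± 0.25 in TCC. ERCC1, the nuclease partner that carries a platinum biomarker rule, had a difference of 0.78 with a wide error (SE 0.38, adjusted p = 0.125). Its lymphoma levels had a lowest value of 5.72 (lymphoma 0), a median of 7.97 and a highest value of 8.44, and the STS stood at 5.55 and 5.10, against 7.80 and 7.01 in the tumors titled sarcoma. The lowest levels of ERCC1 in these 4 types were thus in 2 STS and 1 lymphoma. MGMT, the direct reversal gene with a temozolomide rule, was too dim for the test and had 4.72 to 7.24 in lymphoma, with means of 5.76 ± 0.96 in melanoma, 5.91 ± 0.97 in sarcoma and 5.89 ± 0.22 in TCC.

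In the other 3 types few members differed from the remaining types. In melanoma 0 of 44 members were called in either direction, with the size rule (against 2.55% higher and 1.77% lower of all genes) or by adjusted p alone (against 3.13% and 2.39%), and 15 had a difference above 0 (34.1%, against 45.4%). At an unadjusted p under 0.05 there were 7 (15.9%, against 19.9%), of which NBN, a subunit of the break-sensing MRE11 complex, had +1.03 (adjusted p = 0.116) and XRCC1 had -0.70. In sarcoma 13 members had a difference above 0 (29.5%, against 47.4%), 0 were called with the size rule (against 4.33% higher and 1.71% lower), and 6 had an unadjusted p under 0.05 (13.6%, against 22%). By adjusted p alone 0 were higher (against 4.84%) and 1 was lower (2.27%, against 3.04%). That gene was PARP1, lower by 0.93 (SE 0.25, adjusted p = 0.0284). It lost the threshold in 5 of 30 alternatives, of which 3 left out a single tumor. Over the 30 its difference ran from -1.30 to -0.63, with a largest adjusted p of 0.313. Its lowest level was in STS 1 (7.97). The comparison also shares its tumors with that of lymphoma, where PARP1 was higher. FANCD2 had -1.23 (adjusted p = 0.109). In neither type did a member have every tumor above those of the other 3 types (0 of 44, against 0.491% of all genes in melanoma and 0.461% in sarcoma) or every tumor below them (0 of 44, against 0.0903% and 0.231%).

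In TCC 14 members had a difference above 0 (31.8%, against 44.8%), 1 member was lower (2.27%, against 4.36%) and 0 were higher (against 6.82%), and 4 had an unadjusted p under 0.05 (9.09%, against 26.6%). The one was CHEK2, at -1.20 (SE 0.26, adjusted p = 0.00424). The 3 TCCs, at 7.73 to 8.41, lay below all 16 lymphomas, melanomas and sarcomas, whose lowest was 8.50. Among the types with 1 tumor, the HSA (8.25) lay within the TCC range and the HCC (6.12) below it. CHEK2 was the only member with all TCCs below those 16 tumors (2.27%, against 1.45% of all genes), while 0 members had all 3 TCCs above them (against 4.34%). The comparison shares its tumors with that of lymphoma, where CHEK2 was higher. The call was lost without TCC 1 (-1.05, adjusted p = 0.0512) and when TCC was set against all 20 other tumors (-1.10, adjusted p = 0.301). By adjusted p alone RAD52 was also lower, by 0.96 (SE 0.30, adjusted p = 0.0380), with 6.48, 5.57 and 6.75 in the TCCs. The lowest was TCC 1, without which the difference was -0.61 (adjusted p = 0.326), and 9 of 30 alternatives lost the threshold. That makes 2 lower (4.55% of members, against 5.42%) and 0 higher (against 7.84%).

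Of 52 kept genes of the same pathways that were not members, 15 were higher in lymphoma by adjusted p alone (28.8%, against 17.1% of all genes) and 0 were lower (against 15.9%). These genes were also chosen with earlier results known and come from the same tumors, so they are no independent check. In homologous recombination 7 of 18 were higher. GEN1, a nuclease that resolves Holliday junctions, was higher by 1.26 (SE 0.31, adjusted p = 0.00433), with 10.65 ± 0.53 in lymphoma, against 9.30 ± 1.13 in melanoma, 9.46 ± 0.36 in sarcoma and 9.42 ± 0.08 in TCC. RPA3 and RPA2, subunits of the complex that coats single strands, were higher by 0.57 and 0.87 (adjusted p = 0.0111 and 0.0151). In end joining 1 of 4 was higher (RIF1, by 0.56, adjusted p = 0.0261), in mismatch repair 0 of 2, and in signaling 2 of 8 (RNF8 by 0.66, adjusted p = 0.0160, and CLSPN by 0.83, adjusted p = 0.0373).

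In base excision 3 of 8 were higher, namely the glycosylase TDG (0.66, adjusted p = 0.0105), the flap nuclease FEN1 (0.77, adjusted p = 0.0155) and PARG (0.63, adjusted p = 0.0177), which removes poly-ADP-ribose. In nucleotide excision 2 of 12 were higher, a share no larger than that of all genes, and both are subunits of TFIIH: GTF2H3 by 0.84 (adjusted p = 0.00214) and GTF2H5 by 0.62 (adjusted p = 0.0168). In TCC 2 of these 12 genes were lower, GTF2H3 by 0.92 (adjusted p = 0.0175) and GTF2H1 by 0.82 (adjusted p = 0.0317), and 1 was higher, MNAT1 by 0.77 (adjusted p = 0.0383). All 3 are subunits of TFIIH or of the kinase bound to it, while GTF2H5 did not pass in TCC. Over all 52 kept genes the TCC counts were 2 lower (3.85%, against 5.42% of all genes) and 1 higher (1.92%, against 7.84%). Both shares were below those of all genes.

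Many repair genes are made mainly in S and G2 phase, so a mean over 25 measured proliferation genes was set beside them. Proliferation genes were also higher in lymphoma: all 24 that passed the filter had a difference above 0, with a median of 1.11, and 15 were called higher. The proliferation mean, centred on each gene's mean over the tumors, was 0.81 ± 0.34 in lymphoma, against -0.15 ± 0.78 in melanoma, -0.60 ± 0.37 in sarcoma, -0.02 ± 0.10 for TCC and -1.81 for the HCC. The mean over the homologous recombination members was 0.39 ± 0.18 in lymphoma, against -0.01 ± 0.46 in melanoma, -0.26 ± 0.14 in sarcoma, -0.19 ± 0.03 for TCC and -0.99 for the HCC. Over the 23 tumors it correlated with the proliferation mean (Pearson r = 0.85, Spearman rho = 0.82, and r = 0.84 without the 2 tumors farthest from the median), and also over the 16 tumors that are not lymphomas (r = 0.85). Within the 7 lymphomas r was -0.39 and not stable: it was 0.31 without the 2 lymphomas farthest from the median and ran between -0.73 and -0.07 with 1 left out. Both means come from the same arrays, so these are descriptions.

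The nucleotide excision mean followed proliferation less closely, with r = 0.40 over the 23 tumors and 0.15 over the 16. Its type means were close together, at 0.12 ± 0.13 in lymphoma, against -0.11 ± 0.22 in melanoma, -0.06 ± 0.14 in sarcoma and 0.02 ± 0.08 in TCC. The HCC, at -0.11, was not its lowest tumor. Among single genes, CHEK2 had r = 0.81 over 23 tumors and 0.64 over 16, where PARP1 had 0.56 and 0.05. Without the 2 farthest of the 16, r was 0.33 for CHEK2 and 0.06 for PARP1.

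**Figure D4:**
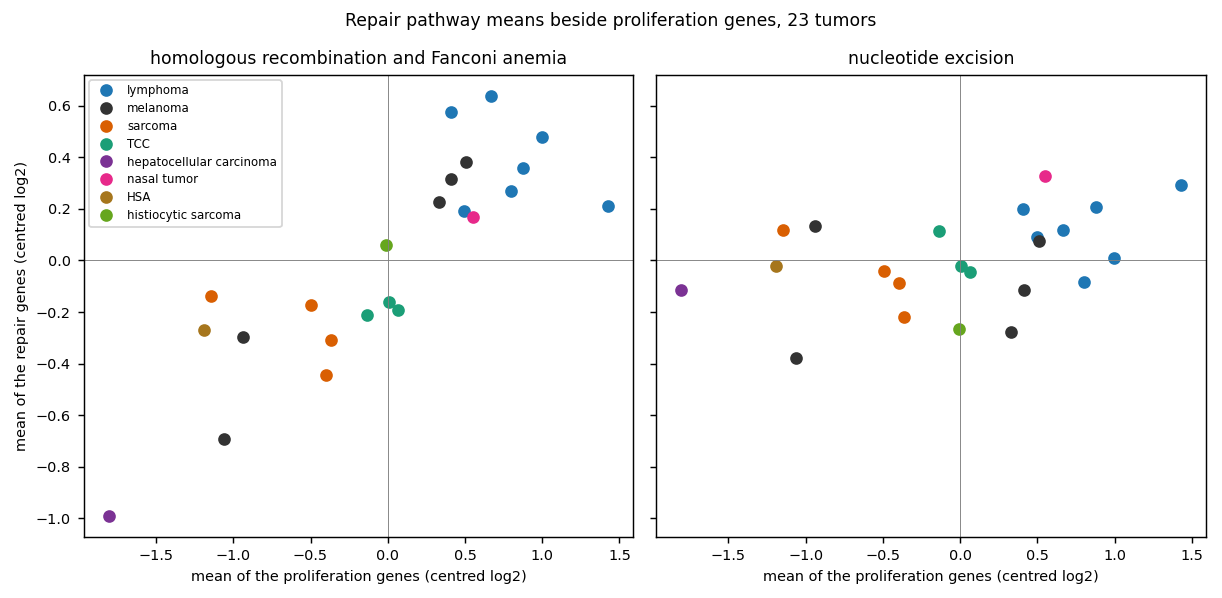
Mean of the homologous recombination members (left) and of the nucleotide excision members (right) against the mean of the proliferation genes, all as centred log2(signal + 16); each point is 1 of 23 tumors, colored by type. The HCC is the lowest point of the left panel in both directions (-0.99 and -1.81), and the right panel spreads little from bottom to top.

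With the proliferation mean as a covariate in the same model, ERCC3 (1.35, SE 0.29, adjusted p = 0.00614), PARP1 (1.24, adjusted p = 0.0245) and CHEK2 (1.02, adjusted p = 0.0276) were called higher in lymphoma, which is 3 of 44 members (6.82%, against 9.04% of all genes). By adjusted p alone the members that passed were the same 3 (against 9.69%). Without the covariate 14 were higher (against 17.1%) and 2 lower (against 15.9%), so the share of all genes fell as well. The covariate was partly tied to type. It was 0.41 to 1.43 in the lymphomas and -1.06 to 0.51 in the melanomas. In the sarcomas it was -1.15 to -0.37, and in the TCCs -0.13 to 0.06. The SE of CHEK2 was 0.28 with it, against 0.20 without. Type and proliferation therefore cannot be fully told apart in this fit. With the covariate BRCA2 had 0.23 (adjusted p = 0.785) and RAD52 0.03 (adjusted p = 0.967). FANCA, at 0.84, had an adjusted p of 0.160. The F test then passed RAD52, ERCC3, PARP1 and CHEK2, 4 of 44 (9.09%, against 20.1%). With the 3' to 5' ratio as a covariate CHEK2 (1.41), PARP1 (1.23) and FANCA were called in lymphoma as before, and PMS1 was gained (1.14, adjusted p = 0.00153). B cell and T cell genes were higher in lymphoma (4 of 4 and 5 of 5 kept genes called) and fibroblast and matrix genes lower (6 of 6, median -2.64). Their part in the repair gene differences was not tested.

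By pathway, damage signaling set the lymphomas apart most often. Its mean was 0.43 to 1.23 in the lymphomas, and 5 of the 7 lay above all 16 other tumors, the highest of which was melanoma 3 at 0.53. The count was 3 of 7 for homologous recombination, 3 for end joining, 2 for mismatch repair, 2 for base excision and 0 for nucleotide excision. Over all members the mean was 0.37 ± 0.13 in lymphoma, against -0.06 ± 0.32 in melanoma, -0.18 ± 0.10 in sarcoma and -0.15 ± 0.01 in TCC. By that mean, too, 5 of the 7 lymphomas lay above all 16 other tumors (melanoma 3 was the highest, at 0.24). The count for signaling was thus not particular to that pathway.

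The 4 types with 1 tumor each allow no test, and their values have no replicate check. The HCC stood apart from the rest. It had the lowest level of all 23 tumors in 18 of 47 members (38.3%, against 13.2% of all 15115 genes). For CHEK1 the order against the HSA is not resolved, nor is that of FANCC (4.39) against lymphoma 3 (4.77) and the histiocytic sarcoma (4.89), all near the floor. In the HCC 22 members were at least 1 below the mean of the other 22 tumors (46.8%, against 21.9%). With the median difference of all genes subtracted the count was 18, for which the share of all genes is not given. Here and below, the shares over all 15115 genes include dim genes. Of these genes 9972 passed the filter, and of the 47 members 44 did. The median difference of the members was -0.85, against -0.21 over all genes. The lowest levels were spread unevenly over pathways, with 3 of 4 in mismatch repair, 3 of 4 in signaling, 6 of 15 in homologous recombination and 4 of 9 in base excision, against 1 of 6 in end joining and 1 of 8 in nucleotide excision. The array of the HCC also had the most probesets with a signal below 16 (27.2%), and its proliferation mean was the lowest of the 23.

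**Figure D5:**
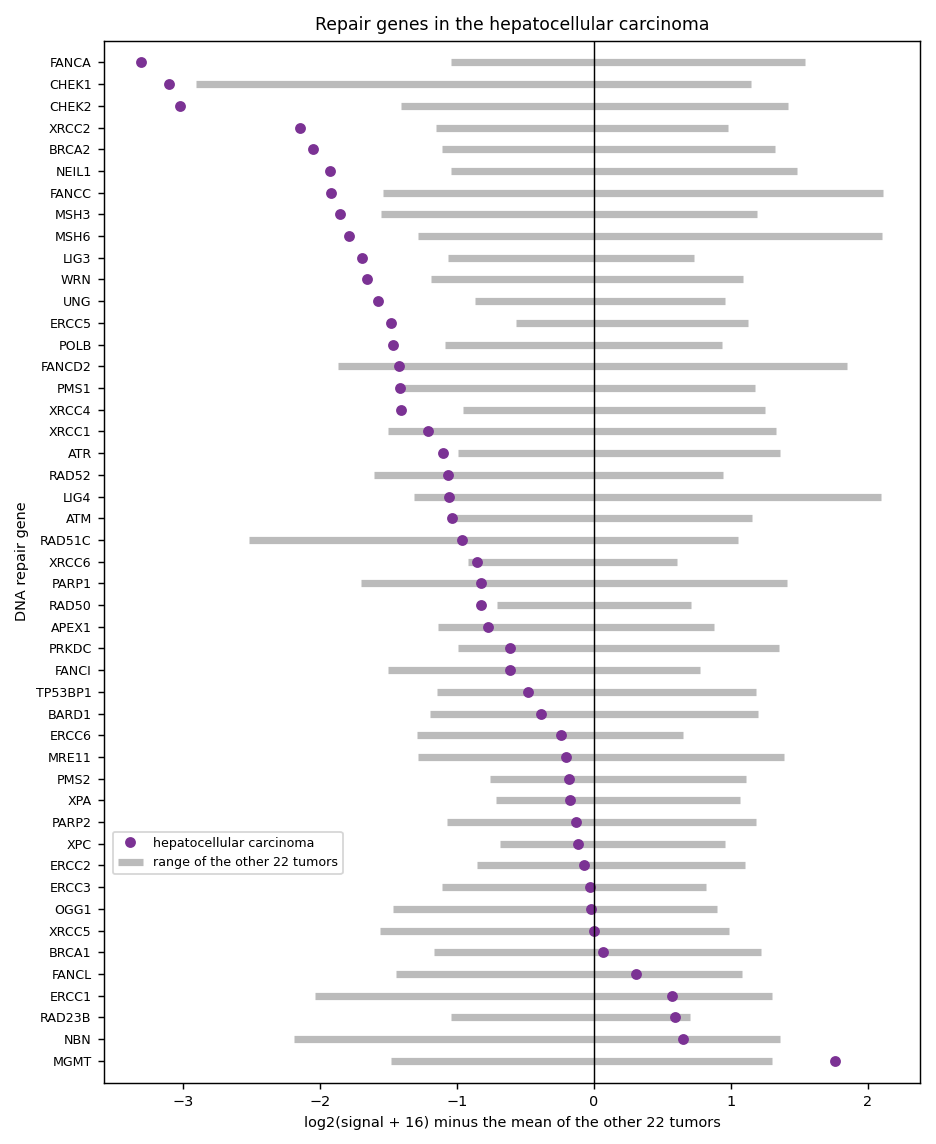
Log2 difference between the HCC (1 tumor) and the mean of the other 22 tumors for the 47 measured DNA repair genes, ordered by that difference, with grey bars for the range of the other 22 around the same mean. CHEK2 lies at -3.02, below the range of the others, and MGMT (1.76) lies above it. The positions of FANCA, CHEK1, FANCC and UNG rest on readings at or near the floor and are set by the added constant of 16.

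CHEK2 was 6.12 in the HCC, against a mean of 9.14 and a lowest level of 7.73 in the other 22 tumors. FANCA, CHEK1, FANCC and UNG were at or near the floor in the HCC (4.39, 4.04, 4.39 and 4.39), where the added constant sets the size of a log2 difference. In raw signal the FANCA probeset read 4.91 in the HCC, against 84.2 to 585 in the others. XRCC2, another paralog of the recombinase, was also dim, at 4.70 in the HCC, against a mean of 6.85.

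MGMT went the other way. It was 7.70 in the HCC, above all 22 other tumors (mean 5.94, highest 7.24), and it was the only member at least 1 above the mean of the others (2.13%, against 17.7%) and the only one with its highest level there (2.13%, against 11.5%). In raw signal MGMT read 192 in the HCC, against 6.03 to 135 in the other tumors. The next largest positive differences were 0.65 for NBN, at 11.31 in the HCC, and 0.59 for RAD23B, at 11.36 in the HCC and a mean of 10.76 in the others.

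The nasal tumor had the highest level of the 23 tumors in WRN, a helicase (9.73, against at most 9.66), XPC, which finds distorted DNA (9.12, against at most 9.00), PARP2 (9.60, against at most 9.23) and the oxidised guanine glycosylase OGG1 (6.75, against at most 6.64), which is 4 members (8.51%, against 4.24% of all genes), and it was lowest in 0 (against 4.51%). Relative to the mean of the others its 2 highest members were FANCD2 (10.33, a difference of 1.26) and PARP2 (1.24), and its 2 lowest were FANCL (8.46, -1.15) and the repair polymerase POLB (8.15, -1.07). Members at least 1 above the mean numbered 5 (10.6%, against 10.9%) and those at least 1 below numbered 2 (4.26%, against 9.51%).

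In the HSA the signaling mean was -1.26, above only that of the HCC at -1.97. Both tumors read CHEK1 at the floor of the scale. The raw signal of its probeset was 2.83 in the HSA and 0.484 in the HCC, against 52.4 to 296 in the other 21 tumors, so the order of the HSA and the HCC is not resolved. FANCI, the partner of FANCD2, was at its lowest in the HSA (6.05, against at least 6.58), as was the abasic site nuclease APEX1 (7.80, against at least 8.16), which makes 2 members (4.26%, against 3.29%), and 0 members were highest there (against 4.66%). At least 1 below the mean of the others were 6 (12.8%, against 8.68%) and at least 1 above was 1 (2.13%, against 13.6%). TP53BP1 was the highest relative to the others (10.30, a difference of 1.18), followed by OGG1 (6.64, 0.81).

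In the histiocytic sarcoma 1 member was at its lowest, XPC (7.48, against at least 7.53; 2.13%, against 3.4% of all genes), and 0 were at their highest (against 3.74%). At least 1 below the mean of the others were 2 (4.26%, against 8.28%), and at least 1 above also 2 (4.26%, against 11.2%). Relative to the mean of the others its lowest were the Fanconi core subunit FANCC (4.89, -1.40) and MSH6 (9.17, -1.06). Its highest were XRCC4, the LIG4 cofactor (9.95, 1.08), and the uracil glycosylase UNG (6.86, 1.01). The median difference of the members was -0.09 in the histiocytic sarcoma, -0.25 in the HSA and 0.17 in the nasal tumor.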

How the data were processed

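The intensity values deposited by the authors are MAS5 signals of Affymetrix Canine Genome 2.0 arrays, scaled so that the trimmed mean of each array is 500; the version of the software was not given in the sources used here. Of 42924 probesets that are not controls, 29254 carry 1 gene symbol in the platform annotation and were used, 439 carry several and 13231 are unnamed here. From these, values were put on a log2 scale after adding 16, and a gene's level is the mean of its probesets, for 15115 genes. The DNA repair genes had 93 probesets, with 20 members on 1 and 27 on several. In 15 of the 27 the lowest correlation between probesets over the 23 arrays was over 0.5, and in 5 (APEX1, ATM, OGG1, PMS2 and UNG) it was under 0. Genes that exceeded 7.03 (the median over genes and arrays) on at least 3 arrays were tested, 9972 in all.

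One model in limma 3.58.1 (R 4.3.3, eBayes with a variance trend) was fitted to the 19 tumors of the 4 types with more than 1 tumor. An F test compared the types, and two-sided contrasts set each type against the mean of the other 3, with Benjamini-Hochberg adjustment over all 9972 genes. A call is an adjusted p under 0.05 with a log2 difference of at least 1. The 4 contrasts share their tumors. Types with 1 tumor got no test: their levels were set beside the mean over the other 22. The members and lists were chosen with earlier results of these data known. The genes named are the called members, the 3 of each pathway with the smallest F test p, the members with a biomarker rule in the study, BRCA1, BRCA2 and PARP1, the 2 highest and 2 lowest of each single tumor, and up to 3 of each list of other pathway genes; further members are given for context and were chosen after their values were seen. In data simulated for the lymphoma contrast over 9972 genes, an adjusted p under 0.05 recovered 49% of 100 genes changed by a log2 of 1 and 82% of 100 changed by a log2 of 2, with 4.38% false calls. Only those genes were changed, with independent noise, where in the data 17.1% of genes were higher and 15.9% lower. The adjusted threshold was thus stricter in the simulation, and its recovery is not that of the reported contrast. The alternatives were other constants, filters, probeset rules, quantile normalization, covariates, sample sets and leaving out each tumor. Depth does not apply to arrays, and their number limits the precision.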

Additional observations from a re-analysis of the deposited data

Results flagged for a closer look

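For each of the 47 measured members, the lymphomas, the melanomas and the sarcomas were searched for 1 tumor far from the others of its type, relative to the range of the type. Of 141 such groups 8 held one, which is close to the 1 in 20 that chance gives, so the 8 are listed as single readings only. OGG1 and MGMT among them fell below the filter on dim genes, and their readings lie near the floor. Lymphoma 4 was low in BRCA2 (7.45, against 8.66 to 9.49 in the other 6 lymphomas) and in RAD50 (10.22, against 11.08 to 11.60). Lymphoma 6 was high in BARD1, the partner of BRCA1 (12.67, against 11.67 to 11.99), and lymphoma 1 was low in OGG1 (4.39, against 5.62 to 6.51). Melanoma 0 was high in LIG4 (10.63, against 8.51 to 8.89 in the other 4 melanomas). STS 1 was high in MSH6 (11.22, against 9.94 to 10.10 in the other 3 sarcomas) and in CHEK1 (7.90, against 6.81 to 6.99), and the tumor titled sarcoma 0 was low in MGMT (4.46, against 6.26 to 6.53).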

How the results depend on the processing

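Over the alternatives, 583 values of single genes kept direction and side of the threshold, 112 lost it, 24 gained it and 1 turned its direction: BRCA1 in lymphoma was -0.43 with the proliferation covariate. The F test passed 4 members with that covariate, against 8, and 6 to 9 with 1 tumor left out. The 3 calls in lymphoma became 5 with the brightest probeset of each gene (PRKDC and ATM were added), 5 with only the STS as sarcoma, 5 with all 23 tumors as 2 groups, 16 by adjusted p alone, and 3 to 5 with 1 tumor left out (5 without lymphoma 4, which added BRCA2 and XRCC1). In melanoma the count was 0 with any 1 tumor left out. In sarcoma it was 4 with only the STS (RAD51C, ERCC1 -1.97, XPA 1.08 and PARP1 -1.30), 1 by adjusted p alone, and 0 to 2 with 1 tumor left out: FANCD2 without melanoma 4, PARP1 without the tumor titled sarcoma 0, and RAD51C and PARP1 without that titled sarcoma 1. In TCC, where CHEK2 was the call, it was 2 with the brightest probeset, 0 with all 23 tumors as 2 groups, 2 by adjusted p alone, and 0 to 2 with 1 tumor left out: 0 without TCC 1, and RAD52 was added without melanoma 4, STS 0 or TCC 2, though by adjusted p alone it was lost in 9 of 30 alternatives. The correlation of homologous recombination with proliferation was 0.80 without the HCC. For most of these settings, and for the replicate block below, the share of all genes called is not given. The changed counts therefore cannot be read as results about repair genes. The causes were not tested.

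With the title number as a replicate block the count was 7 in lymphoma (WRN, ERCC3, XRCC1 and ATR were added), 1 in melanoma (NBN, 1.44) and 1 in sarcoma (PARP1, -1.13). The numbers come from different dogs and share only a number: the mean correlation of deviations was 0.0105 over 23 pairs with the same number and -0.00219 over the other 108. Arrays give signals near the floor no order, which limits the dimmest readings, among them FANCA and CHEK1 in the HCC.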

Other observations

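Over the 23 tumors the 1081 pairs of measured members had a median Pearson correlation of 0.25, and 0.12 once the type means were removed. The median was 0.64 over the 6 pairs of signaling genes, 0.45 over the 6 pairs of mismatch genes, 0.28 over the 105 pairs of homologous recombination genes and 0.03 over the 28 pairs of nucleotide excision genes, against 0.25 over the 885 pairs from different pathways. With the type means removed these medians were 0.30, 0.31, 0.15 and -0.04 in the same order, against 0.12. All values of a pair come from the same arrays, so array quality and the mix of cells are shared.

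MRE11, the nuclease of the complex that senses breaks, and XRCC5, the Ku80 subunit, were the most alike (r = 0.86, rho = 0.81, and r = 0.85 within types over 19 tumors). Melanoma 0 and melanoma 4 held the highest and the lowest level of both, and without them r was 0.75 over 21 tumors. ERCC1 and XPA ran in opposite directions (r = -0.71, rho = -0.70), although both act in nucleotide excision. Both STS were low in ERCC1 (5.55 and 5.10) and high in XPA (10.29 and 10.45), and without them r was -0.49. BRCA2 and CHEK2 had r = 0.80, and 0.71 without the HCC.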
